A study of Homo sapiens with 3 samples.

Results

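Mature miRNAs of the miR-17, miR-18 and miR-19 seed families were followed in small RNA sequencing libraries of CAL-27, an established line from a human squamous cell carcinoma of the tongue. The set was given by name and holds 9 of the 1149 miRNAs listed in the deposited table: hsa-miR-17-5p, hsa-miR-20a-5p, hsa-miR-93-5p and hsa-miR-106b-5p with the miR-17 seed, hsa-miR-18a-5p with the miR-18 seed, hsa-miR-19a-3p and hsa-miR-19b-3p with the miR-19 seed, and hsa-miR-106b-3p and hsa-miR-18a-3p, the opposite strands of 2 of the same hairpins. There were 3 groups with 1 library each. RR was the radioresistant group, given 2 Gy of X-rays daily through 2 cycles of 5 days, each with 2 weeks of recovery after it, before single cells were cloned. The library labelled Mock came from clones that the series' design text places after a single 2 Gy exposure, and CC came from untreated control clones. All 3 derive from the same parental line, and whether RNA of 1 clone or of several was pooled in a library is not in the labels. The treatment tags leave a doubt, since "Gy2" is attached to RR and a plain "IR" to Mock, so each direction below refers to the library as labelled. With 1 library a group there are no replicates, and differences between libraries are given with counting intervals and no p-values.

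A miRNA finds its targets mainly through its seed, bases 2 to 8 counted from the 5′ end, so that miRNAs sharing a seed share many targets. The miR-17-92 cluster is transcribed as part of the long non-coding RNA MIR17HG, is activated by MYC and is known as an oncogene. Its paralogue, the miR-106b-25 cluster, lies in an intron of MCM7, a subunit of the replicative helicase, and is transcribed with it. Members with the miR-17 seed repress the cell cycle inhibitor CDKN1A and the transcription factor E2F1, and miR-18a has been reported to repress the DNA damage kinase ATM. From each hairpin 2 strands can be cut, of which usually 1, the guide, is kept in the silencing complex.

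The sequences show which members share a seed, given in capitals (RefSeq, GRCh38; all 9 equal the sequences in the deposited table, with U for T).
miR-17-5p: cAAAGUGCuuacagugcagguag
miR-20a-5p: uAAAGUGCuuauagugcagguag
miR-93-5p: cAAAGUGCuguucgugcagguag
miR-106b-5p: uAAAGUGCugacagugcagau
miR-18a-5p: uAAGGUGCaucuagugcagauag
miR-19a-3p: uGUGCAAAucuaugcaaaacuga
miR-19b-3p: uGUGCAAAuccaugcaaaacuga
miR-106b-3p: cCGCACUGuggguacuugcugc
miR-18a-3p: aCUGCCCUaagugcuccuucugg

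Within bases 2 to 8, miR-18a-5p differs from miR-17-5p by A4G alone, with positions counted from the 5′ end and the base of miR-17-5p first. miR-19a-3p and miR-19b-3p differ at 1 position over their whole length, U11C. miR-17-5p and miR-20a-5p differ at 2 positions (C1U and C12U). The opposite strands miR-106b-3p and miR-18a-3p carry seeds of their own. By the RefSeq coordinates, miR-17-5p, miR-18a, miR-19a-3p, miR-20a-5p and a copy of miR-19b-3p lie on chromosome 13, from 91350618 to 91351267 on the plus strand. Each overlaps an exon of at least 1 transcript of MIR17HG (GENCODE release 29), and its place in the other transcripts was not examined. miR-93-5p and both strands of miR-106b lie on chromosome 7, from 100093815 to 100094063 on the minus strand, in an intron of MCM7. miR-19b-3p has another, identical copy on chromosome X, at 134169683 to 134169705, so its reads cannot be assigned to a locus.

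The library totals recovered from the scale of the table were 10473400 reads for RR, 10632785 for Mock and 10769990 for CC. Reads of listed miRNAs were 20.5% of that total in RR, 23.2% in Mock and 16.3% in CC. The 9 miRNAs together gave 32265 reads in RR, 35265 in Mock and 28103 in CC. As a share of the miRNA reads this was 1.502% in RR (Clopper-Pearson 95% interval 1.49% to 1.52%), 1.43% in Mock (1.42% to 1.45%) and 1.61% in CC (1.59% to 1.62%). Intervals cover counting error only: the labels mention no molecular identifiers, and PCR copies count as reads. Of 5 squamous epithelial markers all 5 had reads in each library. Their summed level was 44137 rpm (reads per 1000000 reads of the library total) in RR, 28369 rpm in Mock and 37902 rpm in CC. Only miR-205-5p was lower in Mock than in CC, at 14174 rpm in Mock, 25945 in CC and 29651 in RR. In Mock and CC, miR-200c-3p stood at 13918 and 11739 rpm and miR-31-5p at 219 and 179 rpm. miR-141-3p stood at 34.4 and 16.6 rpm and miR-203a-3p at 23.7 and 22.8 rpm in those libraries.

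The 9 miRNAs spanned a wide range of levels, and the strands of miR-18a, miR-19a, miR-19b and miR-106b that carry the family seeds were all scarce. miR-93-5p, of the MCM7 intron, stood at 993 rpm in RR (exact 95% Poisson interval 974 to 1012), 836 in Mock (819 to 854) and 854 in CC (836 to 871). miR-20a-5p stood at 559.6 rpm in RR (545 to 574), 1049 in Mock (1030 to 1069) and 481 in CC (468 to 494). miR-17-5p stood at 433 rpm in RR (421 to 446), 513 in Mock (499 to 527) and 344 in CC (333 to 355). Mock was the highest library for miR-20a-5p and miR-17-5p, while RR was the highest for miR-93-5p as deposited. As a share of miRNA reads, the log2 ratio of RR over CC for miR-93-5p was -0.12.

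The fourth miRNA with this seed, miR-106b-5p, was much scarcer, at 15.3 rpm in RR (13.0 to 17.8), 15.1 in Mock (12.9 to 17.7) and 11.7 in CC (9.75 to 13.9). miR-18a-5p, the single measured carrier of the miR-18 seed, stood at 10.8 rpm in RR (8.89 to 13.0), 17.7 in Mock (15.2 to 20.4) and 8.82 in CC (7.14 to 10.8). The level of miR-18a-5p was above both other libraries in Mock, and the intervals of RR and CC overlapped.

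miR-19b-3p stood at 11.6 rpm in RR (9.67 to 13.9), 23.0 in Mock (20.2 to 26.1) and 11.2 in CC (9.32 to 13.4). miR-19a-3p was the scarcest of the 9, at 3.25 rpm in RR from 34 reads (2.25 to 4.54), 10.4 in Mock from 111 reads (8.59 to 12.6) and 4.27 in CC from 46 reads (3.13 to 5.70). For both miR-19 miRNAs the Mock library was the highest and the RR and CC intervals overlapped. miR-19a-3p, with a mean of 5.99 rpm, was the only one of the 9 under the mean of 10 rpm that a miRNA needed to be counted, which leaves 8 measured here and 208 in the whole table.

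**Figure D1:**
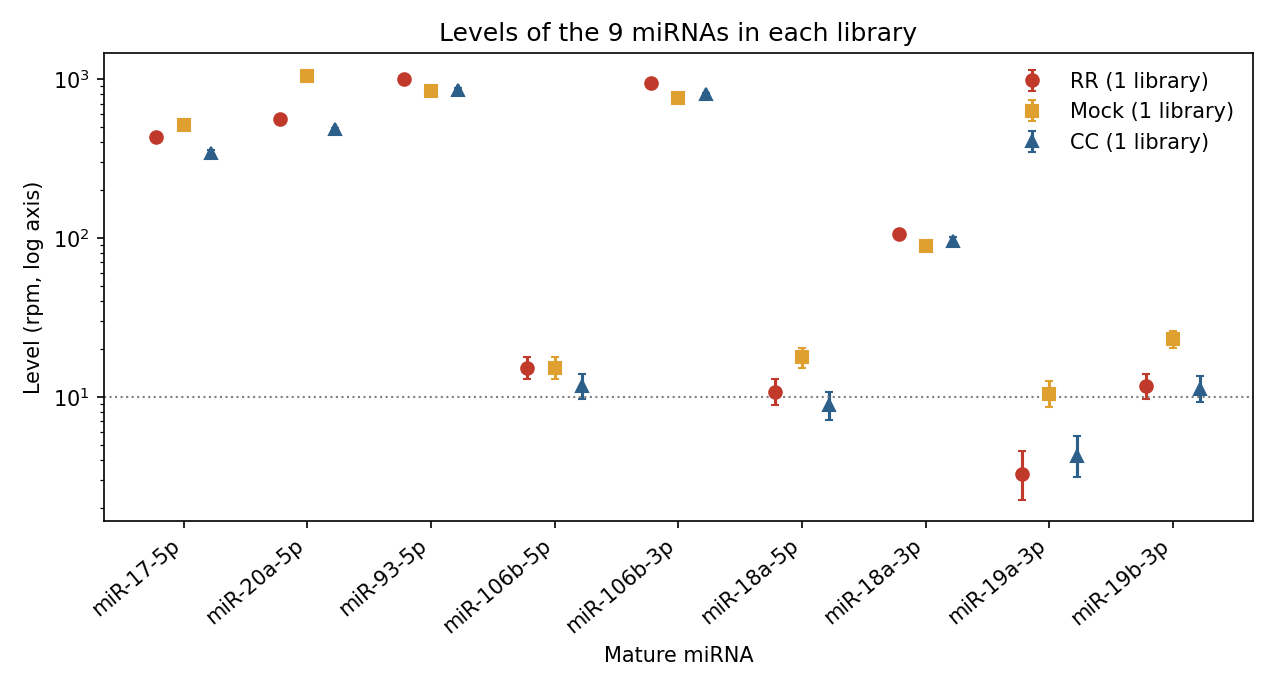
Levels of the 9 miRNAs in rpm on a log axis, with 1 library each for RR, Mock and CC and exact 95% Poisson intervals (mostly smaller than the symbols); the dotted line marks 10 rpm. miR-93-5p, miR-106b-3p, miR-20a-5p and miR-17-5p lie at 344 rpm or above in every library, whereas miR-106b-5p, miR-18a-5p, miR-19a-3p and miR-19b-3p lie at or below 23.0 rpm.

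The order of levels was the same in RR and CC for the 5 most abundant, from miR-93-5p through miR-106b-3p, miR-20a-5p and miR-17-5p to miR-18a-3p, with counting intervals of neighbours apart. In Mock miR-20a-5p led this order, before miR-93-5p. Among the scarce ones, miR-106b-5p, miR-19b-3p and miR-18a-5p were neighbours whose intervals overlapped in each library, in RR and CC in that order and in Mock with miR-19b-3p first. Mature lengths were 21 to 23 bases, so a read stands for a whole molecule and rpm needs no length term. Levels of different miRNAs also depend on how well each is ligated to the adapters, which was not measured.

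The opposite strands miR-106b-3p and miR-18a-3p were far more abundant than miR-106b-5p and miR-18a-5p from the same hairpins. In the hairpins below, in lower case with the mature strands in capitals, the 5p strand comes first.
MIR106B: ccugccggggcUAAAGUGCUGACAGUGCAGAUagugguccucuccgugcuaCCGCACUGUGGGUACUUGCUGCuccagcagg
MIR18A: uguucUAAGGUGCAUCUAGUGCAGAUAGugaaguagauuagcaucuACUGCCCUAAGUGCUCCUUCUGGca

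miR-106b-3p stood at 948 rpm in RR (930 to 967), 763 in Mock (746.5 to 780) and 799 in CC (782 to 816), and miR-18a-3p at 105 rpm in RR (99.3 to 112), 89.0 in Mock (83.4 to 94.8) and 95.6 in CC (89.9 to 102). Of the reads from the miR-106b hairpin, the 3p strand gave 98.4% in RR (98.2% to 98.6%), 98.1% in Mock (97.7% to 98.3%) and 98.6% in CC (98.3% to 98.8%), all by Clopper-Pearson intervals that overlap between the libraries. For miR-18a the 3p strand gave 90.7% in RR (88.9% to 92.3%), 83.4% in Mock (81.1% to 85.5%) and 91.6% in CC (89.8% to 93.1%). There were thus 9.77 reads of miR-18a-3p for each read of miR-18a-5p in RR (8.04 to 12.0), 5.03 in Mock (4.30 to 5.92) and 10.8 in CC (8.78 to 13.5). The interval of Mock lay apart from those of RR and CC. How many other strand pairs shift as much between libraries was not counted. Over all 117 listed strand pairs whose summed mean reached 10 rpm, 35 gave more than 90% of reads from the 3p strand and 45 gave less than 10%, and 21 of them had a higher 3p share than miR-106b.

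Neighbouring hairpins in the same transcripts were of both kinds. The 3p strand also gave most reads of miR-25, in the MCM7 intron, at 97.3% in RR, 98.2% in Mock and 97.8% in CC. From miR-19a, the 5p strand had 0 reads in RR, 1 in Mock and 0 in CC beside those of miR-19a-3p. For miR-17, miR-20a and miR-93 the 5p strand, which carries the seed, gave nearly all reads: the 3p share for miR-17 was 0.351% in RR, 0.420% in Mock and 0.403% in CC. For miR-93 it was 0.990%, 0.859% and 0.777% in those libraries. miR-20a-3p had 0 reads in RR, 9 in Mock and 1 in CC, beside 5861, 11158 and 5178 reads of miR-20a-5p in those libraries. Along MIR17HG, strands of 1 transcript thus ranged from miR-19a-5p and miR-20a-3p, at or near 0 reads, to miR-92a-3p, at the abundant end of the cluster with 13443 rpm in RR, 12318 rpm in Mock and 12959 rpm in CC. miR-92a-3p also has a copy of its hairpin on chromosome X.

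**Figure D2:**
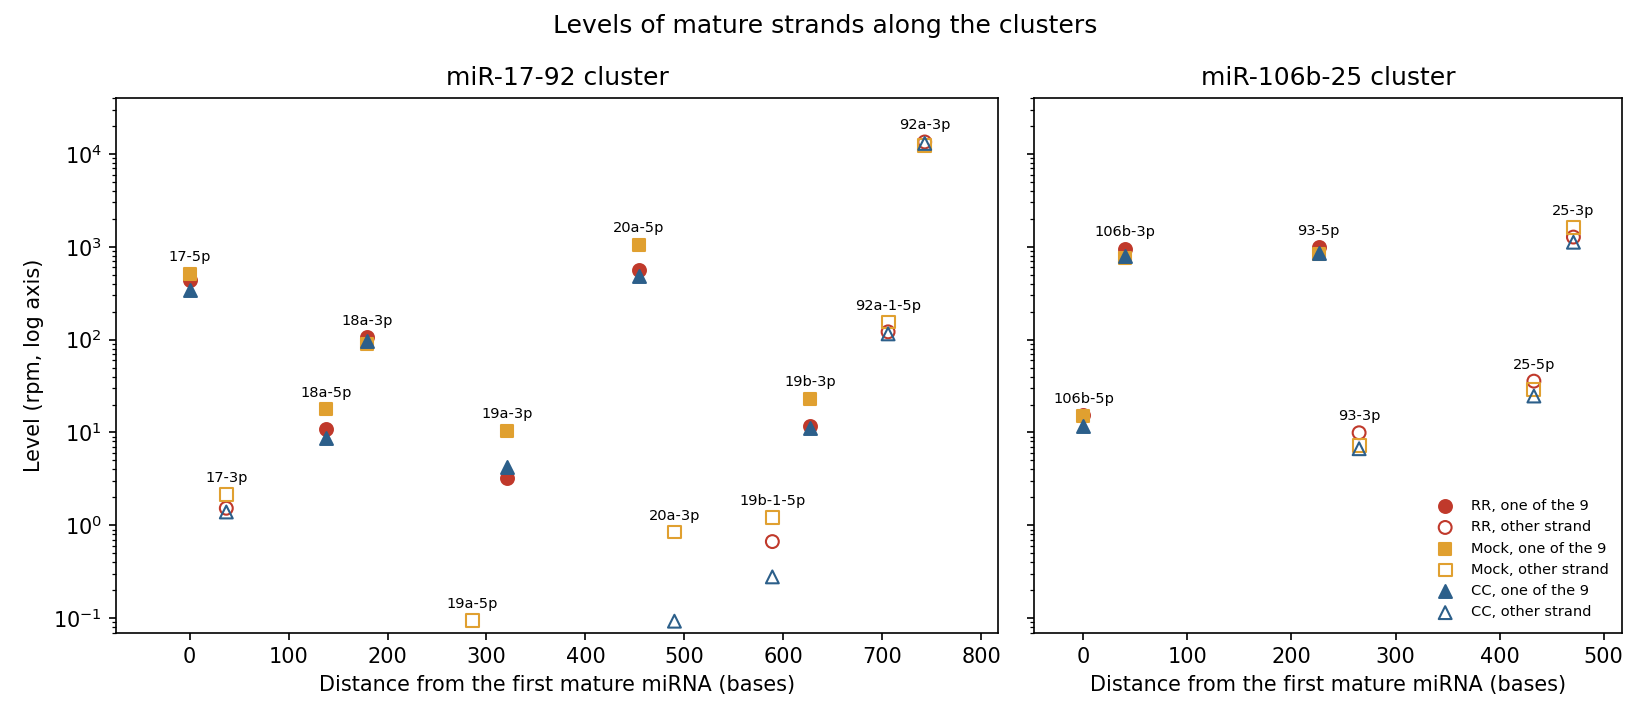
Levels of mature strands in rpm on a log axis against the distance in bases from the first mature miRNA of the miR-17-92 cluster (left) and the miR-106b-25 cluster (right), in the direction of transcription. Symbols stand for RR, Mock and CC, filled for the 9 miRNAs described and open for the other strands, and strands with 0 reads in a library are left out; miR-106b-3p lies far above miR-106b-5p, and miR-18a-3p above miR-18a-5p.

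RR over CC asks which of these miRNAs differ between radioresistant and untreated cells. None of the 8 measured differed by 2-fold or more (a log2 ratio of 1 in size, after adding 1 rpm), beside 0.962% of all 208 higher and 0.481% lower (2 and 1 miRNAs as deposited, 0 and 2 after median-ratio scaling). All 8 had a ratio above 1, but so had most miRNAs: the median log2 ratio was 0.23 for the 8 and 0.36 for all 208, and 7 of the 8 lay below that general median. The ratio was 1.26 for miR-17-5p (1.21 to 1.32), 1.16 for miR-20a-5p (1.12 to 1.21) and 1.16 for miR-93-5p (1.13 to 1.20). It was 1.31 for miR-106b-5p (1.03 to 1.66), 1.19 for miR-106b-3p (1.15 to 1.22) and 1.10 for miR-18a-3p (1.01 to 1.20).

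The remaining ratios of RR over CC had intervals that include no change: 1.22 for miR-18a-5p (0.923 to 1.62), 1.04 for miR-19b-3p (0.800 to 1.34) and 0.760 for miR-19a-3p (0.473 to 1.21). Relative to the median of all measured miRNAs, miR-106b-5p lay level at 0.0019 on the log2 scale and miR-17-5p at -0.023, whereas miR-19b-3p lay at -0.31 and miR-18a-3p at -0.22. Summed over its 4 carriers, the miR-17 seed reached 2001 rpm in RR and 1690 in CC, a ratio of 1.18 (1.16 to 1.21). Summed over miR-19a-3p and miR-19b-3p, the miR-19 seed reached 14.9 rpm in RR and 15.5 in CC, a ratio of 0.961 (0.767 to 1.20). The excess over CC depended on the scale: with the libraries scaled by their median ratio, the median log2 ratio of the 8 was -0.15 and that of all 208 was -0.021.

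Mock over CC asks how cells after a single exposure differ from untreated cells. Here the members differed among themselves. As deposited, miR-20a-5p, miR-18a-5p and both miR-19 miRNAs were about 2-fold higher in the Mock library, and miR-17-5p was higher by less. On that scale miR-93-5p, miR-106b-3p and miR-18a-3p were close in both. As a share of miRNA reads, their log2 ratios were -0.54, -0.58 and -0.61. On this scale the log2 ratio was 0.066 for miR-17-5p, 0.61 for miR-20a-5p, 0.46 for miR-18a-5p, 0.68 for miR-19a-3p and 0.50 for miR-19b-3p. By the rule, 1 of the 8 measured was higher by 2-fold or more and 0 were lower, beside 12.0% of all 208 higher and 3.85% lower. On the scale of all 208, 25 were higher and 8 lower as deposited, against 10 higher and 18 lower after median-ratio scaling and 7 higher and 31 lower as a share of miRNA reads. The member past 2-fold was miR-20a-5p, with a ratio of 2.18 (2.11 to 2.26) and a log2 ratio of 1.12. With median-ratio scaling that log2 ratio was 0.82, and with a linear trend on GC content removed it was 0.81.

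Just under the rule, miR-19b-3p had a ratio of 2.05 (1.64 to 2.57) and miR-18a-5p of 2.00 (1.56 to 2.59), with log2 ratios of 0.97 and 0.93 once 1 rpm was added. miR-19a-3p, under the minimum level, had a ratio of 2.44 (1.72 to 3.53). miR-17-5p followed with 1.49 (1.43 to 1.56) and miR-106b-5p with 1.29 (1.02 to 1.65). The ratio was 0.979 for miR-93-5p (0.951 to 1.01), 0.955 for miR-106b-3p (0.926 to 0.984) and 0.930 for miR-18a-3p (0.851 to 1.02). As deposited, the 5p strand of the miR-18a hairpin was thus higher in Mock, while the interval of the 3p strand includes no change. This is the shift in their read ratio given above. The strands differ in GC content, 43.5% for miR-18a-5p and 56.5% for miR-18a-3p. With a linear GC trend removed, their log2 ratios were 0.74 and 0.085.

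Summed by seed, miR-17 stood at 2413 rpm in Mock and 1690 in CC (ratio 1.43, 1.40 to 1.46), miR-18 at 17.7 and 8.82 rpm in those libraries, and miR-19 at 33.5 rpm in Mock and 15.5 in CC (2.16, 1.79 to 2.61). These sums depended on the scale. The log2 ratio of the miR-17 seed was 0.51 as deposited, 0.21 with median-ratio scaling and 0.0031 as a share of miRNA reads. On those scales it was 0.93, 0.65 and 0.46 for the miR-18 seed and 1.06, 0.78 and 0.575 for the miR-19 seed. The make-up of the miR-17 seed pool also differed between Mock and CC. miR-20a-5p gave 43.5% of its reads in Mock (42.9% to 44.1%) and 28.4% in CC (27.8% to 29.1%), whereas miR-93-5p gave 34.6% in Mock (34.1% to 35.2%) and 50.5% in CC (49.8% to 51.2%). In RR the shares were 28.0% for miR-20a-5p and 49.6% for miR-93-5p, close to those in CC. miR-17-5p kept between 20.3% and 21.6% of this pool in the 3 libraries.

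**Figure D3:**
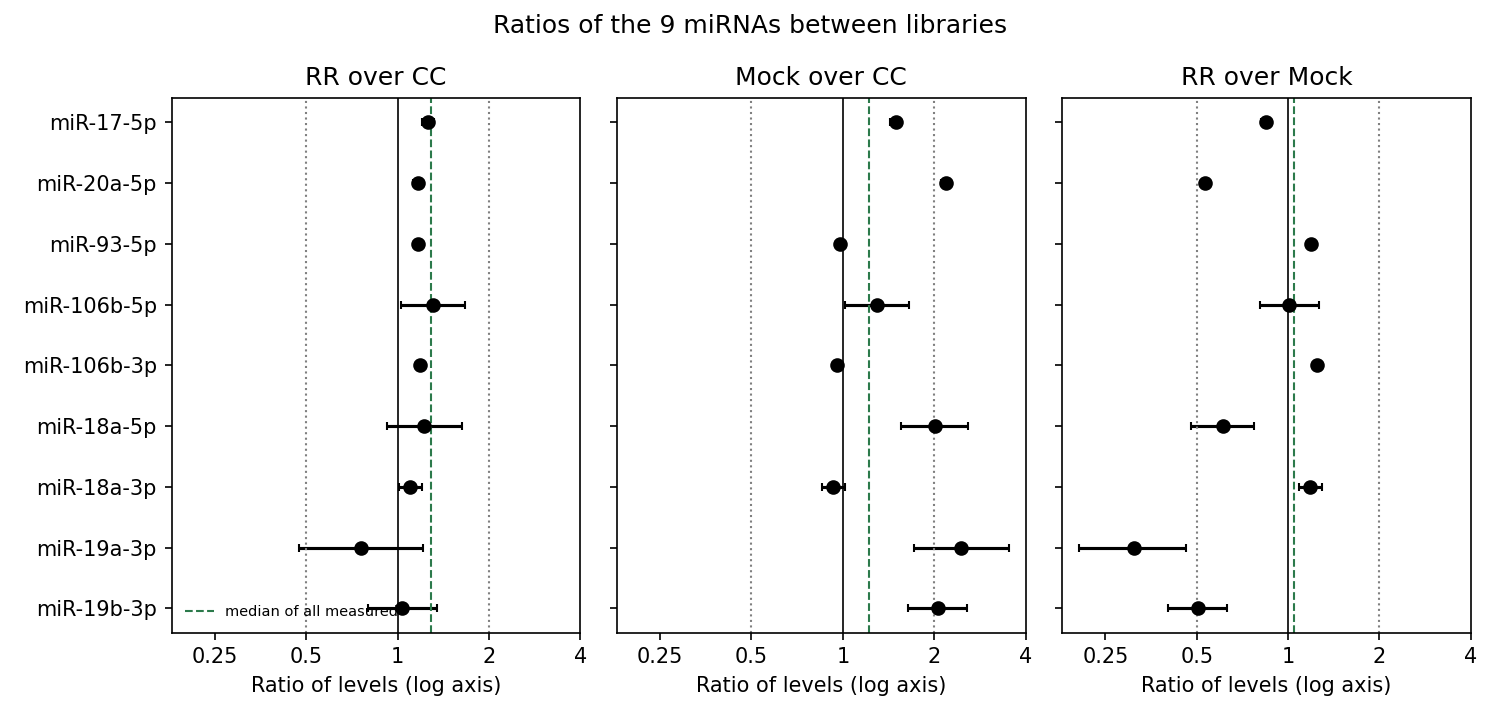
Ratios of the 9 miRNAs between libraries on a log axis, with the deposited values and exact 95% intervals from read counts; dotted lines mark 2-fold either way and the dashed line the median ratio of all 208 measured miRNAs. In RR over CC the points lie close to or left of the dashed line, and in Mock over CC miR-20a-5p, miR-18a-5p, miR-19a-3p and miR-19b-3p lie near or past 2-fold while miR-93-5p, miR-106b-3p and miR-18a-3p lie near 1.

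The members that stood highest in Mock over CC were of low GC content. miR-19a-3p holds 34.8% G and C, miR-20a-5p and miR-19b-3p 39.1%, miR-106b-5p 42.9%, miR-18a-5p 43.5% and miR-17-5p 47.8%, against 52.2% in miR-93-5p, 56.5% in miR-18a-3p and 63.6% in miR-106b-3p. The same lean ran through the whole table: the median log2 ratio of Mock over CC was 0.73 in the 63 miRNAs under 45% GC and -0.29 in the 63 at 55% or more. With a linear GC trend removed, the log2 ratio was 0.81 for miR-20a-5p, 0.74 for miR-18a-5p, 0.68 for miR-19a-3p, 0.66 for miR-19b-3p and 0.51 for miR-17-5p, beside a median of 0.32 for all 208. On that scale it was 0.33 for miR-106b-3p, 0.14 for miR-106b-5p, 0.085 for miR-18a-3p and 0.032 for miR-93-5p.

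**Figure D4:**
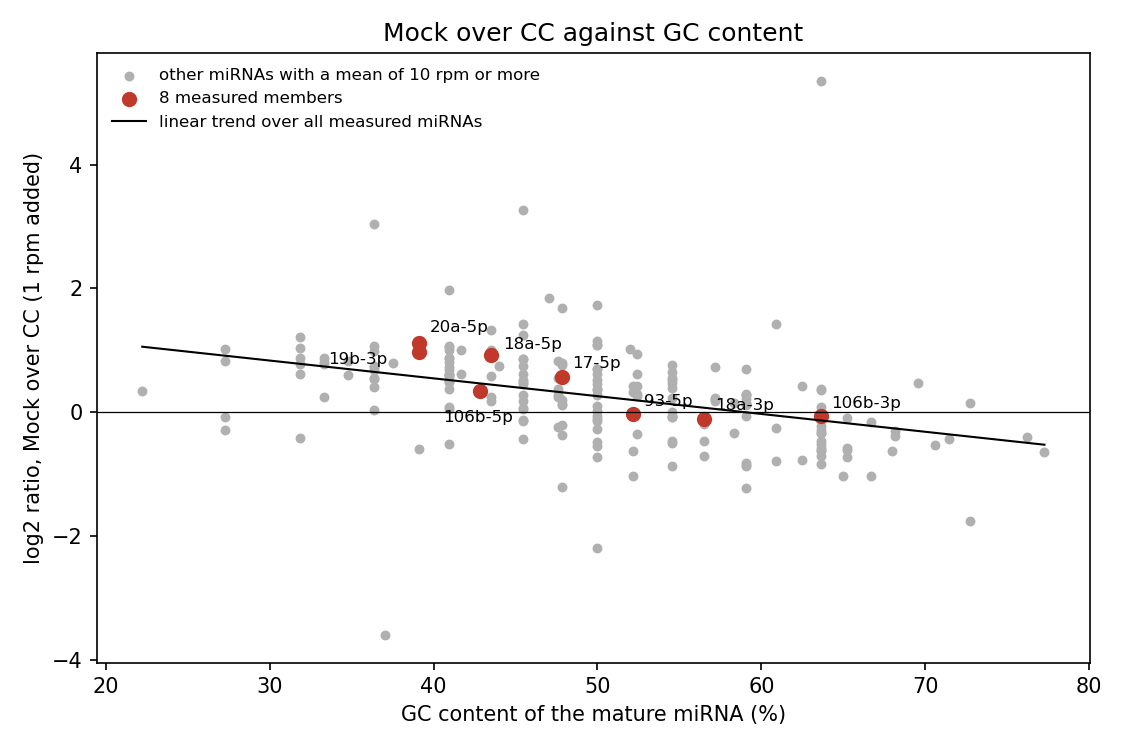
Log2 ratio of Mock over CC, with 1 rpm added, against the GC content in percent of each of the 208 measured miRNAs, with the 8 measured members of the set in red and a linear trend over all miRNAs as a line. miR-20a-5p and miR-18a-5p lie above the line, and miR-93-5p and miR-18a-3p below it.

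The locus separates the members in part in the same way. The 3 strands from the MCM7 intron summed to 1614 rpm in Mock and 1665 in CC (ratio 0.970, 0.949 to 0.990), and 4 seed-bearing strands that have their copy on chromosome 13 alone, miR-17-5p, miR-18a-5p, miR-19a-3p and miR-20a-5p, summed to 1590 rpm in Mock and 838 in CC (1.90, 1.85 to 1.95). Both sums are on the deposited scale. As a share of miRNA reads, the log2 ratio was -0.54 for miR-93-5p and -0.58 for miR-106b-3p of the MCM7 sum. For miR-20a-5p and miR-17-5p of the chromosome 13 sum it was 0.61 and 0.066. The sums were also not built alike. In Mock the opposite strand miR-106b-3p gave 47.3% of the MCM7 sum, whereas the chromosome 13 sum leaves out miR-18a-3p. miR-20a-5p gave 66.0% of the chromosome 13 sum in Mock and 57.4% in CC. miR-92a-3p, also of MIR17HG but with a copy on chromosome X, had a ratio of 0.951 (0.943 to 0.958). miR-18a-3p, from chromosome 13 and rich in G and C, went with the MCM7 strands, and miR-25-3p, from the MCM7 intron, was 1.44-fold higher in Mock (1.41 to 1.47) at 1609 rpm, against 1119 in CC. miR-106b-5p, from the MCM7 intron but of low GC content, had the ratio of 1.29 given above. The parts of locus and of GC content in these ratios were not tested.

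Blood miRNAs stood higher in the Mock library too. Of 6 blood markers 5 are in the table, and their summed level was 12.3 rpm in RR, 409 rpm in Mock and 9.56 rpm in CC, with miR-486-5p giving 398 rpm of the level in Mock. Reads were found for 3 of these in RR, 5 in Mock and 3 in CC, with miR-144-3p at 0 in RR and CC, miR-142-3p at 0 in RR and miR-150-5p at 0 in CC. The muscle markers did not move alike. Mock was the highest library for miR-206, with 25.5 rpm against 3.63 for RR and 1.76 for CC. It was the lowest for miR-1-3p, with 319 rpm against 404 for RR and 338 for CC. For miR-133a-3p Mock was also the lowest, with 7 reads against 9 for RR and 11 for CC. The 3 muscle markers, nearly all miR-1-3p, summed to 408 rpm in RR, 345 rpm in Mock and 341 rpm in CC, endothelial and mesenchymal markers to 87.0, 71.5 and 60.3 rpm, and the liver marker miR-122-5p stood at 2.96, 5.45 and 4.46 rpm in the same libraries. All 3 libraries came from clones of a carcinoma line, and the source of these blood and muscle miRNAs was not tested. Whether the same source has a part in the levels of the 9 miRNAs was not tested either.

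RR over Mock compares cells after repeated exposure with cells after a single one. Of the 8 measured, 0 differed by 2-fold or more, beside 8.17% of all 208 higher in RR and 4.81% lower (17 and 10 miRNAs as deposited, 25 and 8 as a share of miRNA reads, 7 and 7 without a GC trend). The ratio was 0.533 for miR-20a-5p (0.517 to 0.550), 0.506 for miR-19b-3p (0.403 to 0.631), 0.610 for miR-18a-5p (0.479 to 0.775) and 0.845 for miR-17-5p (0.812 to 0.879), each lower in RR. miR-19a-3p, not counted for its low level, was 3.22-fold lower in RR (2.17 to 4.87). Higher in RR as deposited were miR-106b-3p at 1.24 (1.21 to 1.28), miR-93-5p at 1.19 (1.15 to 1.22) and miR-18a-3p at 1.18 (1.09 to 1.29). miR-106b-5p stood level at 1.01 (0.806 to 1.26). Removing a linear GC trend took the log2 ratio of miR-106b-3p from 0.31 to -0.11. It took that of miR-18a-3p from 0.24 to 0.039, of miR-93-5p from 0.25 to 0.18 and of miR-106b-5p from 0.012 to 0.23. For miR-20a-5p it went from -0.91 to -0.57, for miR-19b-3p from -0.93 to -0.59, for miR-18a-5p from -0.66 to -0.46 and for miR-17-5p from -0.24 to -0.17. The miR-19 seed stood at 14.9 rpm in RR and 33.5 in Mock, a ratio of 0.445 (0.366 to 0.538). Any pair of the 3 comparisons shares a library, so they are not independent of each other.

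Of 19 further strands and paralogues of these clusters that had been listed, 15 are in the table and 5 were measured. None of the 5 differed by 2-fold in any comparison. Of all 208, 1.44% did in RR over CC, 15.9% in Mock over CC and 13.0% in RR over Mock. The median log2 ratio of the 5 was 0.18 in RR over CC, 0.21 in Mock over CC and 0.13 in RR over Mock, beside 0.36, 0.28 and 0.065 for all 208. miR-92a-3p, which shares MIR17HG, showed a ratio of 1.04 for RR over CC (1.03 to 1.05) and 0.951 for Mock over CC (0.943 to 0.958). miR-92a-1-5p, cut from the same hairpin as the chromosome 13 copy, had 1.05 (0.972 to 1.14) and 1.34 (1.24 to 1.44). miR-363-3p, of the paralogous cluster on chromosome X, stood at 20.4 rpm in RR, 10.2 rpm in Mock and 14.9 rpm in CC, with a ratio of 2.01 for RR over Mock (1.59 to 2.56) that was not past 2-fold once 1 rpm was added (log2 ratio 0.94).

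The miR-17 seed is carried by 2 more miRNAs in the table, both from chromosome X paralogues, and no other listed miRNA has the miR-18 or miR-19 seed. miR-106a-5p, which differs from miR-17-5p by C1A alone, stood at 5.16 rpm in RR from 54 reads, 1.505 in Mock from 16 reads and 3.44 in CC from 37 reads. Its ratio of Mock over CC was 0.438 (0.228 to 0.807), in the opposite direction to that of miR-17-5p. miR-20b-5p, which differs from miR-20a-5p by U1C and U10C, stood at 3.53 rpm in RR, 3.01 rpm in Mock and 2.88 rpm in CC, with a ratio of Mock over CC of 1.05 (0.618 to 1.77), while miR-20a-5p was past 2-fold. The sources used here do not say how reads matching several of these near-identical miRNAs were assigned, so the levels of miR-17-5p, miR-20a-5p, miR-19a-3p, miR-19b-3p and their paralogues are uncertain to that extent.

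Among 86 other miRNAs that averaged 100 rpm or more, those with log2 ratios of RR over CC and of Mock over CC nearest to each summed seed family were found over the 3 libraries. Closest to the miR-17 seed were miR-200b-3p, at 1160 rpm in RR, 1420 rpm in Mock and 976 rpm in CC, and miR-200a-5p, whose log2 ratios lay within 0.026 and 0.044. Closest to the miR-18 seed were miR-222-3p and miR-10a-5p, within 0.067 and 0.080, and closest to the miR-19 seed were let-7c-5p and miR-7-5p, within 0.10 and 0.19. With 3 libraries such likeness describes only 2 ratios for each miRNA.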

How the data were processed

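Small RNA libraries were made with a New England Biolabs ligation kit from total RNA of CAL-27 clones and sequenced on an Illumina NovaSeq, per the labels' protocols. Bowtie and GRCh38 are named in the submitters' processing notes. The sources used here name no trimming, miRNA reference or treatment of multi-mapping reads. The deposited values, which the authors call TPM, behave as RPM: they step by 1 read, worth 0.0955 rpm in RR, 0.0940 rpm in Mock and 0.0929 rpm in CC, and dividing by that step gave whole reads (tolerance 0.01) for 100% of values. The floor of 3 reads is 0.286 rpm in RR, 0.282 rpm in Mock and 0.279 rpm in CC.

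Columns were assigned through the treatment tag. With 1 library a group, no model was fitted: levels have exact Poisson intervals and ratios Clopper-Pearson intervals, at 95%. Counts use log2 ratios after adding 1 rpm, and cover miRNAs averaging at least 10 rpm that pass 2-fold. A closest miRNA was the one whose larger log2 difference from the family sum, over RR over CC and Mock over CC, was smallest. Sequences and coordinates come from RefSeq (GRCh38) and hosts from GENCODE release 29, with all 9 members matched. The calculations were tested on simulated reads. The members, lists and rules were chosen with earlier results of these data known. Software was scipy 1.17.1, numpy 2.4.6, matplotlib 3.10.9, pandas 2.3.3 and Python 3.11.15.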

Additional observations from a re-analysis of the deposited data

How the results depend on the processing

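Alternatives were a pseudocount of 0.1 or 10 rpm, no minimum level or a mean of 100 rpm, median-ratio scaling, values as a share of miRNA reads, a total that leaves out the 10 most abundant miRNAs, removal of a linear GC trend and a threshold of 1.5-fold. For RR over CC the count past the threshold was 0 under each of these. Of all miRNAs, 0% to 1.44% were past 2-fold under the alternatives that keep that threshold, and 14.4% of all 208 were past 1.5-fold. For Mock over CC the count of 1 became 2 with a pseudocount of 0.1 rpm (miR-20a-5p and miR-19b-3p), where 16.8% of all miRNAs were past 2-fold in either direction, 2 of 9 without a minimum level (with miR-19a-3p; 5.22% of all 1149), and 3 of 8 at 1.5-fold (46.2% of all 208). It became 0 with median-ratio scaling, as a share of miRNA reads, without the 10 most abundant and without the GC trend, where 13.5%, 18.3%, 13.9% and 10.1% of all were past 2-fold. For RR over Mock the count of 0 became 1 of 9 without a minimum level (miR-19a-3p; 4.96% of all 1149) and 3 of 8 at 1.5-fold (36.5% of all 208).

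The median log2 ratio of the members for RR over CC, 0.23, was -0.15 with median-ratio scaling, -0.10 as a share of miRNA reads and -0.085 without the 10 most abundant, where that of all 208 was -0.021, 0.026 and 0.043. For Mock over CC, 0.46 as deposited, it was 0.17, -0.032 and 0.12 under these scalings, where that of all 208 was -0.012, -0.22 and -0.058, and 0.27 for the 4 members with a mean of 100 rpm or more. A scaling moves all miRNAs alike: the members' median lay 0.13 below that of all 208 for RR over CC under each of the 3 scalings and 0.18 to 0.19 above it for Mock over CC. The minimum level turned both signs: at 100 rpm or more the Mock over CC median of 0.27 lay below that of all 93 such miRNAs, 0.45, and without a minimum the RR over CC median of 0.22 over 9 members lay above that of all 1149, 0.12. Of these 1149, only 648 had reads in all 3 libraries. Adding 1 rpm draws the log2 ratios of miRNAs with few or no reads towards 0, and with them the general median. For RR over Mock the median lay between -0.24 and 0.054. No paired analysis was possible because each group has 1 library. For the same reason no library was left out in turn, and no count test was run on the recovered reads. miR-19a-3p, at 34 to 111 reads a library, has the widest intervals of the 9.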
